A study of Saccharomyces cerevisiae with 16 samples.

Results

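Siderophore iron genes let *Saccharomyces cerevisiae* hold, take up and reduce iron bound to siderophores, the small iron chelators that other microbes release. The 10 genes described here were chosen by name: the cell wall genes FIT1, FIT2 and FIT3, the transporter genes ARN1, ARN2, SIT1 and ENB1, and the reductase genes FRE3, FRE5 and FRE7. Each was matched by its annotated symbol to 1 probe set, and they make up 10 of the 5449 genes on the array. Testing required 3 or more arrays with 4 log2 units or more, a limit that 9 of the 10 genes met. ARN2 did not meet it, and FRE5 met it only through aerobic arrays.

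Baker's yeast makes no siderophores of its own, but it uses those of other organisms. FIT mannoproteins retain siderophore iron in the cell wall, transporters of the ARN family carry whole iron siderophores into the cell, and FRE reductases free the iron at the cell surface. Most of these genes are switched on by the transcription factors Aft1 and Aft2 when iron is short, while FRE7 is known for control by copper through Mac1.

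The study followed strain CEN.PK113-7D, a prototrophic haploid laboratory strain, in mineral medium while glucose was raised linearly so that ammonia took over as the limiting nutrient. A total of 16 RNA samples was hybridised to Affymetrix arrays, 8 from a series with oxygen and 8 from a series without. Values are GCRMA log2 intensities, 1 per probe set, so levels can be compared between samples but not between genes. The only differences that the labels give between samples are oxygen, time and glucose concentration, here called feed glucose.

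In the aerobic series, the early samples were taken at 0, 4.1 and 6.85 h with 1, 5.51 and 8.5 g/L feed glucose. The aerobic mid samples came at 9.6 and 14.5 h with 11.56 and 16.96 g/L, and the aerobic late samples at 27.25, 42.65 and 53.95 h with 30.97, 47.91 and 60.34 g/L. In the anaerobic series, the early samples were taken at 0, 4.35 and 10.38 h with 1, 4.87 and 10.31 g/L. The anaerobic mid samples came at 16.88 and 26.52 h with 16.19 and 24.86 g/L, and the late samples at 35.67, 42.85 and 50.85 h with 33.1, 39.56 and 46.75 g/L. The phases were set from feed glucose, so samples of a phase are serial samples and not repeats of 1 condition. No separate cultures are named in the labels, and the p-values therefore reflect the spread among serial samples alone. Each oxygen condition had 1 series, so the effects of oxygen and of the culture cannot be told apart.

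The median log2 value of an array was 11.33 to 11.51 with oxygen and 10.78 to 10.97 without. The oxygen labels were borne out by DAN1, a cell wall gene made without oxygen, at 1.96 to 2.05 on the aerobic arrays and 9.0 to 15.75 on the anaerobic arrays. HEM13, another such marker, was at 11.78 in the anaerobic 0 h sample, within its aerobic range of 10.99 to 12.51. The early anaerobic samples were not alike in ANB1, a further such marker, at 7.70, 9.96 and 13.49, against 13.94 to 14.68 on the later anaerobic arrays. Every comparison that uses the early anaerobic samples therefore mixes levels of these markers. The aerobic 9.6 h array was least like its own series: its correlations with the remaining arrays had a median of 0.87, where the medians of those arrays were 0.923 to 0.96. Both 0 h arrays preceded the ramp. In the anaerobic 0 h sample CYC1, which encodes a respiratory cytochrome c, was at 15.29, above the 9.28 to 14.37 of the later anaerobic arrays. Values without these 3 arrays, or without the 0 h arrays alone, are given where they change a call or a sign or move a difference by a wide margin. The number of arrays limits the precision throughout, and in bulk samples fewer cells with a transcript cannot be told apart from less of it per cell.

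**Figure D1:**
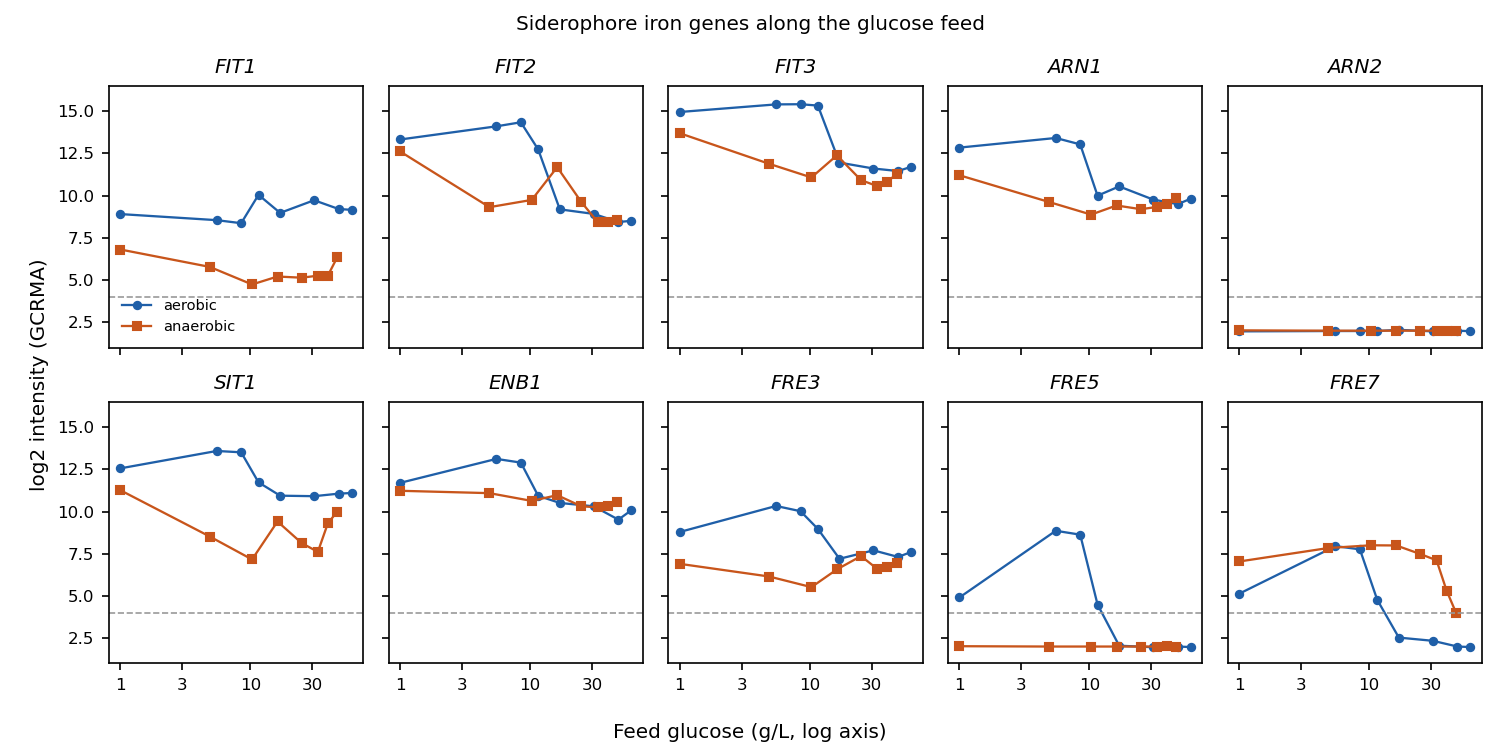
Log2 intensity of the 10 siderophore iron genes against feed glucose (g/L, log axis), with 1 point per array, lines joining the 8 aerobic (circles) and 8 anaerobic (squares) samples, and a dashed line at 4 log2 units. In the aerobic series 7 genes besides FRE5 are lower in every late sample than in every early sample, as are 17.6% of all genes. FRE5 is lower as well, which follows from the filter. FIT1 stays between 8.37 and 10.05, and ARN2 stays between 1.96 and 2.05.

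With oxygen, siderophore iron genes fell along the feed. FRE5 could pass the filter only through its early aerobic samples and 1 mid aerobic sample, so a difference between its phases and between oxygen conditions was built in by the filter. It is therefore described without a test and left out of the counts, which cover the 8 other tested genes. Between the early and late aerobic samples 6 of the 8 genes fell, FIT1 and SIT1 did not pass the test, and none rose. Over all 5213 tested genes 4.28% fell and 11.2% rose in this comparison (limma, Benjamini-Hochberg adjusted p under 0.05). A second quantile normalization shifted the split of all called genes from 584 higher and 223 lower to 490 higher and 317 lower, and left 6 siderophore genes lower. The late samples did not overlap the early ones, and were lower, for 7 of the 8 genes and for 17.6% of all genes. The median change was -3.01 log2 units over the 8 genes and 0.10 over all genes. FRE7 lay under 4 log2 units in the late samples, and with its change measured from 4 the median of the 8 was -2.78.

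Of the FIT genes, FIT2 and FIT3 fell and FIT1 did not pass the test. FIT2 was at 13.33, 14.11 and 14.35 log2 units in the early aerobic samples, 12.74 and 9.19 in the mid samples, and 8.92, 8.44 and 8.51 in the late samples. The early samples were all above the mid samples, and the mid samples all above the late ones. Its late minus early change was -5.31 ± 0.93 log2 units (SE, 3 arrays a side, adjusted p = 0.00405, limma). FIT3 stayed at 14.96, 15.41, 15.42 and 15.34 on the first 4 aerobic arrays and was at 11.96, 11.61, 11.46 and 11.71 on the last 4. FIT3 thus held its early level through the 9.6 h sample and was low in all samples after it, with a change of -3.67 ± 0.78 (adjusted p = 0.0103). FIT1 was at 8.91, 8.55 and 8.37 in the early samples, 10.05 and 8.98 in the mid samples and 9.73, 9.21 and 9.16 in the late samples. The late FIT1 samples all lay above the early ones, as they did for 30% of all genes, but the change of 0.75 ± 0.48 did not pass the test (adjusted p = 0.312, limma).

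Of the 4 transporter genes, ARN1 and ENB1 fell. ARN1, a carrier of ferrichrome-type siderophores, was at 12.85, 13.42 and 13.04 log2 units in the early aerobic samples, 10 and 10.55 in the mid samples, and 9.77, 9.50 and 9.82 in the late samples. The early level was left between 6.85 and 9.6 h, and the change was -3.41 ± 0.44 (adjusted p = 0.000768, limma). ENB1, which carries enterobactin, was at 11.70, 13.12 and 12.90 in the early samples, 10.93 and 10.51 in the mid samples, and 10.31, 9.52 and 10.08 in the late samples. No late or mid sample of ENB1 reached its early range, and the change was -2.60 ± 0.35 (adjusted p = 0.000999, limma).

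SIT1, a ferrioxamine carrier, was at 12.56, 13.59 and 13.51 log2 units in the early aerobic samples, 11.73 and 10.94 in the mid samples, and 10.91, 11.06 and 11.10 in the late samples. Its late samples were all below its early ones, yet the change of -2.20 ± 0.87 did not pass the test (adjusted p = 0.106). The test shares its estimate of spread with the anaerobic samples, where the SD of SIT1 was up to 2.09, against up to 0.57 in the aerobic phases. Without both 0 h arrays the change was -2.53 ± 0.65 (adjusted p = 0.0119), with 11.3% of all genes then lower. Leaving out the anaerobic 0 h array alone gave -2.20 (adjusted p = 0.0286). With the aerobic arrays fitted alone the adjusted p was 0.0131. With FRE5 counted, 7 siderophore genes were called in that fit and 7 in the main fit, so another gene lost its call there. ARN2, a carrier of triacetylfusarinine C, stayed between 1.96 and 2.05 on all 16 arrays, at the bottom of the range of values, so that no change could be measured.

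Of the reductase genes FRE3 and FRE7 fell, and FRE5 is given as a description. FRE3, which reduces siderophore-bound iron, was at 8.79, 10.33 and 10.02 log2 units in the early aerobic samples, 8.97 and 7.20 in the mid samples, and 7.70, 7.31 and 7.60 in the late samples. The late samples lay below all early ones, with a change of -2.18 ± 0.51 (adjusted p = 0.0152, limma). This call was lost without any one of the aerobic arrays at 4.1 h (-1.87, adjusted p = 0.0731), 6.85 h (-2.02, adjusted p = 0.0685), 42.65 h (-2.07, adjusted p = 0.0627) or 53.95 h (-2.21, adjusted p = 0.0534).

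FRE5, a member of the same family whose substrate is less well known, was at 4.91, 8.86 and 8.63 log2 units in the early aerobic samples, 4.49 and 2.05 in the mid samples, and 1.96, 2.00 and 1.97 in the late samples. Its signal was high in 2 samples, those at 4.1 and 6.85 h. Measured from 4 log2 units the early level was at least 11.1-fold higher than the late one. FRE7 was at 5.13, 7.95 and 7.76 in the early samples, 4.77 and 2.53 in the mid samples, and 2.34, 2.00 and 1.97 in the late samples. FRE7 followed the same course as FRE5, high at 4.1 and 6.85 h, and its early level was at least 7.73-fold higher than its late one (adjusted p = 0.00451, limma).

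For most of these genes the 0 h sample was not the peak of the aerobic series. FIT2, FIT3, ARN1, SIT1, ENB1, FRE3, FRE5 and FRE7 were each higher at 4.1 h and at 6.85 h than at 0 h. How many of all genes were so was not counted, and FRE5 passed the filter only through aerobic samples. The gap between 0 and 4.1 h was widest for FRE5, from 4.91 to 8.86 log2 units, and for FRE7, from 5.13 to 7.95. Each of these comparisons rests on single arrays.

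Between 6.85 and 9.6 h the largest drop between consecutive aerobic samples was seen for ARN1 (-3.03 log2 units), SIT1 (-1.78), ENB1 (-1.98), FRE5 (-4.14) and FRE7 (-2.99). For FIT1 (-1.07), FIT2 (-3.55), FIT3 (-3.37) and FRE3 (-1.77) it was seen between 9.6 and 14.5 h. These intervals held the largest drop of 30.7% and 29.8% of all tested genes. Both rest on the 9.6 h array, which stood apart from the rest of its series.

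The tested genes other than FIT1, with FRE5 counted, were positively correlated with each other in the aerobic series. Over the 8 aerobic arrays their 28 pairwise Pearson correlations ran from 0.78 to 0.99, with a median of 0.94. The highest, 0.99, was that of FRE5 with FRE7, and the course of FRE5 follows from the filter. Pairs without FRE5 ran from 0.78 (FIT3 with ARN1) to 0.98 (FIT2 with FIT3, among others). How high such correlations run among all genes was not counted. The 8 pairs with FIT1 ran from -0.77 to -0.30, with a median of -0.59. These values describe 8 serial samples of 1 series, whose neighbours share most of their conditions.

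Without oxygen, none of the 8 genes passed the test between the early and late samples, where 6.04% of all genes did (limma, adjusted p under 0.05). At an unadjusted p under 0.05 there were 2, FIT2 and FRE7, but the share of all genes at that threshold was not counted. The median change was -0.47 log2 units over the 8 genes and 0.00 over all genes. The late samples were all below the early ones for 2 of the 8 genes, FIT2 and ENB1, and for 14.9% of all genes. The late anaerobic samples were not alike in DAL80, a marker of nitrogen limitation. It was at 6.11 log2 units at 35.67 h, and at 13.08 and 13.41 at 42.85 and 50.85 h. In the late aerobic samples DAL80 was at 14.77, 14.75 and 14.79. Every comparison that uses the late anaerobic samples therefore mixes nitrogen states.

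FIT2 was at 12.62, 9.32 and 9.75 log2 units in the early anaerobic samples, 11.69 and 9.62 in the mid samples, and 8.45, 8.43 and 8.55 in the late samples. It was highest at 0 h and again high at 16.88 h, and the change of -2.09 ± 0.93 did not pass the test (adjusted p = 0.209, limma). FIT3 took the same course, at 13.70, 11.89 and 11.08 in the early samples, 12.39 and 10.92 in the mid samples, and 10.57, 10.80 and 11.31 in the late samples. FIT3's early and late samples overlapped, and its change of -1.33 ± 0.78 did not pass the test (adjusted p = 0.338, limma). FIT1 was at 6.81, 5.78 and 4.74 in the early samples, 5.21 and 5.14 in the mid samples, and 5.26, 5.27 and 6.36 in the late samples. Its first and last samples were the highest of the series, with a late minus early change of -0.15 ± 0.48 (adjusted p = 0.887, limma).

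The transporter genes were also highest at 0 h in the anaerobic series. ARN1 was at 11.21, 9.63 and 8.88 log2 units in the early samples, 9.42 and 9.20 in the mid samples, and 9.33, 9.51 and 9.85 in the late samples. After 0 h all ARN1 samples lay between 8.88 and 9.85, and the late minus early change was -0.35 ± 0.44 (adjusted p = 0.692, limma). SIT1 was at 11.26, 8.52 and 7.16 in the early samples, 9.41 and 8.13 in the mid samples, and 7.61, 9.31 and 10 in the late samples. SIT1 had no single direction along the feed, with 2 low samples at 10.38 and 35.67 h and a change of -0.00 ± 0.87 (adjusted p = 1, limma). ENB1 was at 11.23, 11.09 and 10.63 in the early samples, 10.97 and 10.31 in the mid samples, and 10.25, 10.33 and 10.58 in the late samples. Its late samples lay just below its early ones, by -0.60 ± 0.35 (adjusted p = 0.34, limma).

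FRE3 was at 6.90, 6.15 and 5.52 log2 units in the early anaerobic samples, 6.57 and 7.36 in the mid samples, and 6.60, 6.73 and 6.94 in the late samples. It was lowest at 10.38 h and highest at 26.52 h, with a change of 0.57 ± 0.51 (adjusted p = 0.545, limma). FRE5 stayed between 2.00 and 2.02 on all 8 anaerobic arrays, under 4 log2 units throughout, so that no change is given. FRE7 held between 7.04 and 8.0 on the first 5 anaerobic arrays, at 7.04, 7.84, 8.0, 7.99 and 7.48, and was at 7.11, 5.31 and 4.00 in the late samples. The last 2 FRE7 samples were the lowest of the series, and the change of -2.15 ± 0.87 did not pass the test (adjusted p = 0.168, limma).

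The anaerobic changes of several genes rested on the 0 h array. Without both 0 h arrays the late minus early change of FIT2 was -1.06 ± 0.85 log2 units, and the sign turned for FIT1 (0.37), ARN1 (0.31) and SIT1 (1.14). None of the 8 genes passed the test in that setting, where 13.2% of all genes were higher and 6.69% lower in the late samples. In the 0 h sample the respiratory gene CYC1 was high along with FIT2, FIT3, ARN1 and SIT1, as was HMX1, the heme oxygenase gene of the Aft1 regulon, at 11.56. The part of that state in the levels of the siderophore genes was not tested. Without the 0 h arrays and the aerobic 9.6 h array 2 genes passed, FRE3 higher (0.92 ± 0.28, adjusted p = 0.0246, with 20.9% of all genes higher) and FRE7 lower (-2.45 ± 0.67, adjusted p = 0.0174, with 19.7% lower).

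**Figure D2:**
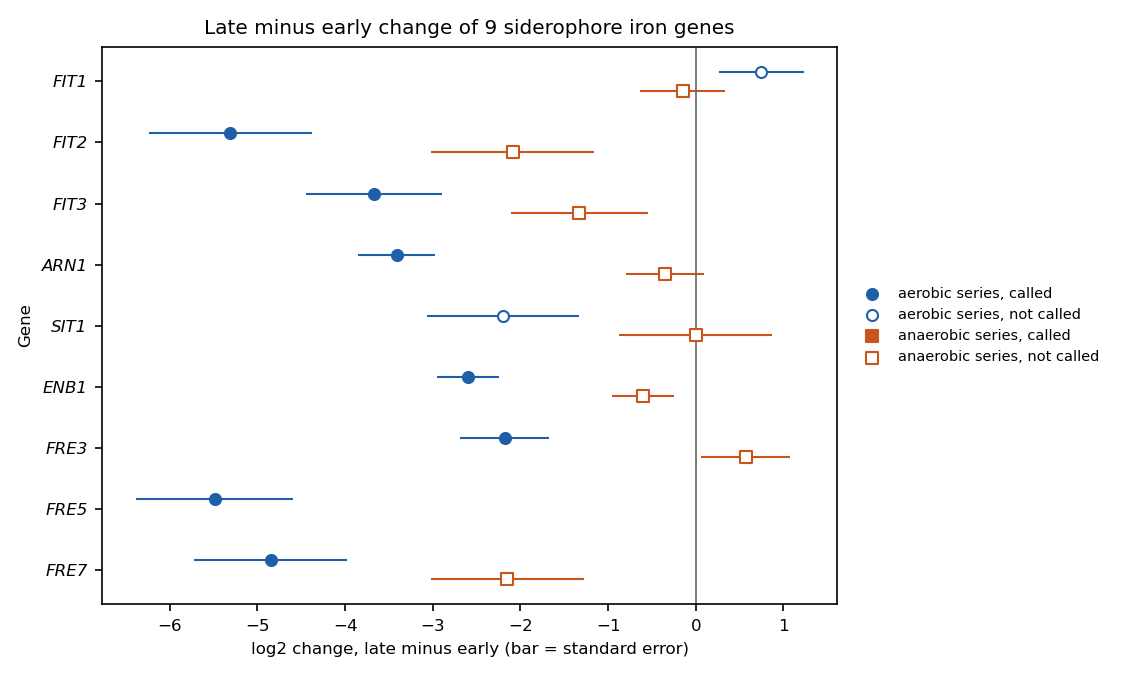
Late minus early change (log2 units) of the tested siderophore iron genes in the aerobic (circles) and anaerobic (squares) series, with bars of 1 SE from limma and filled symbols for an adjusted p under 0.05. In the aerobic series 6 genes are filled, from -2.18 for FRE3 to -5.31 for FIT2, besides FRE5, whose filled symbol follows from the filter, while no anaerobic symbol is filled, with FRE5 and FRE7 drawn at fitted values, and FRE5 left out for the anaerobic series because all its arrays lay under 4 log2 units.

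The late minus early changes of the 2 series were also compared with each other. ARN1 was the only one of the 8 genes whose changes differed past the threshold, by 3.06 ± 0.62 log2 units (anaerobic minus aerobic, adjusted p = 0.033, limma). Of all genes 0.844% differed in this direction and 0.978% in the other. The call for ARN1 was lost when any of 9 single arrays was left out, 5 aerobic and 4 anaerobic, with differences from 2.90 to 3.18 and adjusted p-values from 0.064 to 0.101. The aerobic arrays were those at 4.1, 6.85, 27.25, 42.65 and 53.95 h, and the anaerobic ones those at 4.35, 35.67, 42.85 and 50.85 h. Over all alternatives run for ARN1 the difference ranged from 2.1 to 3.84 and the adjusted p from 0.000155 to 0.579.

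Differences of the other genes did not pass the test. They were 2.01 ± 0.49 log2 units for ENB1 (adjusted p = 0.068) and 2.75 ± 0.72 for FRE3 (adjusted p = 0.0853). For FIT2, FIT3, FRE7 and SIT1 the differences lay between 2.19 and 3.22 (adjusted p from 0.267 to 0.458), and for FIT1 the difference was -0.90 (adjusted p = 0.621). Without both 0 h arrays the changes of 3 genes differed: ARN1 by 3.84 (adjusted p = 0.000942), ENB1 by 2.57 (adjusted p = 0.00798) and FRE3 by 3.56 (adjusted p = 0.0146). In that setting 1.59% of all genes differed in this direction. Leaving out the aerobic 0 h array alone was enough for ENB1 (2.45, adjusted p = 0.00728) and FRE3 (3.21, adjusted p = 0.0307). FRE3 also passed without the aerobic 9.6 h array (adjusted p = 0.0386) or the aerobic 14.5 h array (adjusted p = 0.0382), with a difference of 2.75. Without the 0 h arrays and the aerobic 9.6 h array the changes of 6 of the 8 genes differed, beside 3.78% of all genes in this direction. FIT2 (4.55, adjusted p = 0.00272), FIT3 (3.22, adjusted p = 0.00673) and SIT1 (3.66, adjusted p = 0.0329) then passed along with ARN1, ENB1 and FRE3, while FRE7 (3.31, adjusted p = 0.0542) and FIT1 (-0.53, adjusted p = 0.553) did not.

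**Figure D3:**
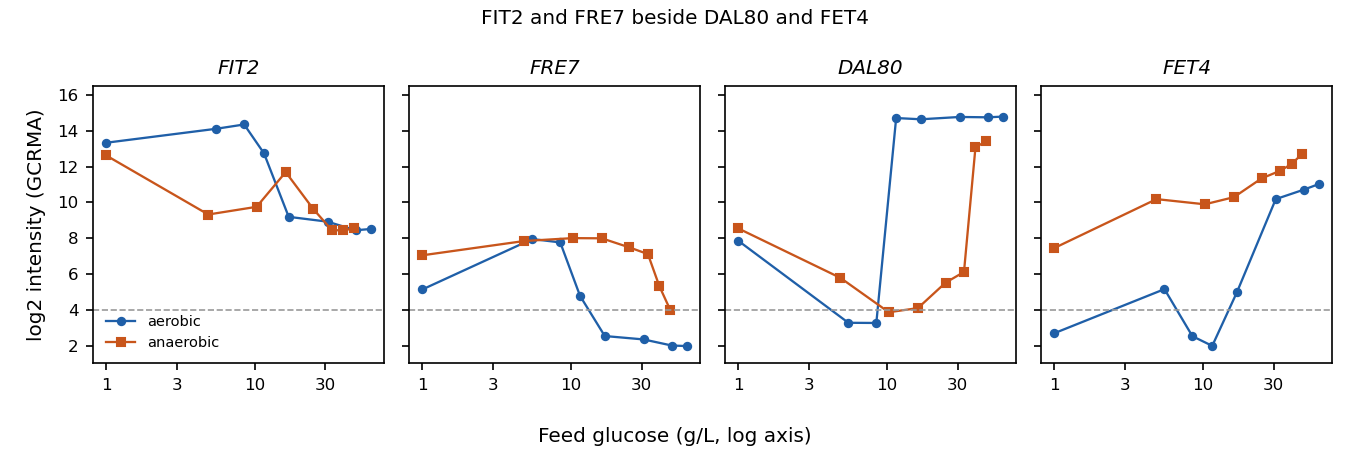
Log2 intensity of FIT2, FRE7, the nitrogen marker DAL80 and the iron transporter gene FET4 against feed glucose (g/L, log axis), with 1 point per array, circles for aerobic and squares for anaerobic samples, and a dashed line at 4 log2 units. FRE7 drops in the interval in which DAL80 rises in each series, from 7.76 to 4.77 with oxygen and from 7.11 to 5.31 without, and FET4 ends at 11.02 and 12.72.

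DAL80 rises under nitrogen limitation, and its largest rise was taken to mark the change of nitrogen state in each series. At 0 h DAL80 was at 7.85 log2 units with oxygen and 8.54 without, above the 3.27 and 5.78 of the next samples. Its largest rise between consecutive samples came between 6.85 and 9.6 h with oxygen, from under 4 log2 units to 14.71, and was 6.97 log2 units between 35.67 and 42.85 h without. FRE7 had its largest drop in the same interval in both series, -2.99 with oxygen and -1.81 without. The aerobic and anaerobic intervals held the largest drop of 30.7% and 11.4% of all tested genes. FIT2 and FIT3 dropped most 1 interval after DAL80 rose with oxygen, and between 0 and 4.35 h, by -3.30 and -1.81, without. ARN1 (-1.58) and SIT1 (-2.74) also had their largest anaerobic drop in that first interval, which held the largest drop of 35.9% of all genes. Each of these steps is between single arrays and was not tested.

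In the early samples siderophore iron genes were lower without oxygen: 7 of the 8 genes passed the test in this direction, and FRE7 did not pass (0.68 ± 0.87 log2 units, adjusted p = 0.572, and -0.23 without the aerobic 0 h array). Of all genes 36% were lower without oxygen in this comparison and 2.69% higher (limma, adjusted p under 0.05). The median of all genes was itself shifted, by -0.45 log2 units in the early and -0.57 in the late samples. A second quantile normalization turned the split of all called genes in the early samples from 140 higher and 1876 lower to 273 higher and 180 lower, and centring on array medians turned it to 509 higher and 214 lower. Under either of these, 5 siderophore genes were lower (FIT1, FIT3, ARN1, SIT1 and FRE3), where 3.45% and 4.11% of all genes were lower, and FIT2 and ENB1 did not pass the test. The early samples of the series did not overlap, and were lower without oxygen, for 7 of the 8 genes and for 39.7% of all genes.

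The early difference was -4.24 ± 0.87 log2 units for SIT1 (adjusted p = 0.00373), or -3.79 relative to the median of all genes. It was -3.53 ± 0.51 for FRE3 (adjusted p = 0.000656), or -3.08 relative to that median. For ARN1 it was -3.20 ± 0.44 (adjusted p = 0.000508), or -2.75 relative to the median. The early FRE5 level was at least 11.1-fold higher with oxygen, measured from 4 log2 units. For FIT1, FIT2 and FIT3 the early differences were -2.84 ± 0.48, -3.37 ± 0.93 and -3.04 ± 0.78 (adjusted p = 0.00156, 0.0149 and 0.0104). FIT2's call was lost without the anaerobic 4.35 h array (-2.75, adjusted p = 0.0619) or without the anaerobic 10.38 h array (-2.96, adjusted p = 0.0578). ENB1 showed the smallest early difference among the 7 genes that passed, -1.59 ± 0.35 (adjusted p = 0.00516). Without both 0 h arrays the same comparison gave -5.71 for SIT1, -4.69 for FIT2, -4.34 for FRE3, -3.97 for ARN1, -3.93 for FIT3, -3.21 for FIT1 and -2.15 for ENB1. These 7 passed there too (adjusted p from 1.82e-05 to 0.00498, limma), beside 40.9% of all genes lower, and FRE7 was at 0.07.

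In the late samples 2 of the 8 genes passed the test between oxygen conditions, FIT1 and FRE7. Of the late anaerobic samples, that at 35.67 h preceded the largest rise of DAL80, while all late aerobic samples followed theirs. FIT1 was lower without oxygen by -3.73 ± 0.48 log2 units (adjusted p = 9.51e-05), or -3.17 relative to the median of all genes. Of all genes 49% were lower and 4.93% higher in the late samples. With a second quantile normalization the split of all called genes moved from 257 higher and 2552 lower to 650 higher and 691 lower, and with centring to 844 higher and 671 lower. FRE7 was at least 2.77-fold higher without oxygen (adjusted p = 0.00646, limma), but its adjusted p was 0.0543 after a second quantile normalization. The late differences of FIT2 (-0.15 ± 0.93, adjusted p = 0.911) and ARN1 (-0.14 ± 0.44, adjusted p = 0.821) had no stable sign, and were 0.90 and 0.67 after that normalization. ENB1 differed by 0.42 ± 0.35 (adjusted p = 0.332), and passed as higher without oxygen after the second quantile normalization (1.19, adjusted p = 0.0254, with 12.5% of all genes higher) and after centring (1.04, adjusted p = 0.0446, with 16.2% higher). SIT1 was below its aerobic range in every late anaerobic sample, by -2.05 ± 0.87, which did not pass the test (adjusted p = 0.0632). SIT1 passed without the anaerobic array at 0 h (adjusted p = 0.0122), 10.38 h (adjusted p = 0.0334) or 50.85 h (adjusted p = 0.0449), and without both 0 h arrays (adjusted p = 0.0107). FIT3 (-0.71 ± 0.78, adjusted p = 0.47) and FRE3 (-0.78 ± 0.51, adjusted p = 0.214) did not pass, although their late arrays did not overlap between the series. Without the 0 h arrays and the aerobic 9.6 h array FRE3 passed at the same difference (adjusted p = 0.0159), beside 64.5% of all genes lower. Late FRE7 arrays did not overlap either and were higher without oxygen, as for 10.4% of all genes. Late arrays that did not overlap and were lower without oxygen were found for 4 of the 8 genes and for 69.3% of all genes. Whether a gene's early and late oxygen differences differ from each other is the same test as that of the 2 late minus early changes, which ARN1 alone passed.

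Averaged over the phases, 5 of the 8 genes were lower without oxygen, FRE7 was higher, and FIT2 and ENB1 did not pass. Of all genes 62.3% were lower and 8% higher, so a lower mean was the common case. A second quantile normalization moved that split from 417 higher and 3246 lower to 1235 higher and 1304 lower, and centring moved it to 1553 higher and 1215 lower. FIT1 had the largest mean difference, -3.64 ± 0.30 log2 units (adjusted p = 1.32e-06), and its 8 anaerobic arrays, from 4.74 to 6.81 with a median of 5.26, all lay below its 8 aerobic arrays, from 8.37 to 10.05 with a median of 9.07. Such a gap was found for 20.8% of all genes. FRE7 went the other way, by 2.71 ± 0.54 (adjusted p = 0.000734), with arrays that overlapped between the series. SIT1 differed by -2.95 ± 0.54, FIT3 by -1.91 ± 0.48, FRE3 by -1.81 ± 0.32 and ARN1 by -1.43 ± 0.27 (adjusted p from 0.000257 to 0.00356). FRE5 lay under 4 log2 units on every anaerobic array and on 4 of its 8 aerobic arrays. The plain mean of its 8 aerobic arrays, not averaged over the phases, was 4.36. Measured from 4 that gives -0.36, from which no difference between the series is read. Relative to the median of all genes, -0.51, the difference was -3.12 for FIT1 and 0.10 for ENB1. FIT2 differed by -1.27 ± 0.58 (adjusted p = 0.0665), and passed without the aerobic array at 14.5 h (-1.87, adjusted p = 0.00558) or the anaerobic array at 0 h (-1.62, adjusted p = 0.0105) or 16.88 h (-1.62, adjusted p = 0.0398). ENB1 differed by -0.42 ± 0.22 (adjusted p = 0.104). Its sign turned under both other scalings, to 0.22 and 0.16, and it passed as lower without the aerobic 0 h array (-0.56, adjusted p = 0.00794). Without both 0 h arrays all 8 genes passed, 7 lower and FRE7 higher, beside 65.4% of all genes lower and 8.38% higher, with FIT2 at -1.72 (adjusted p = 0.0103) and ENB1 at -0.60 (adjusted p = 0.00645). Comparisons within and between the series use the same arrays and are not independent of each other.

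**Figure D4:**
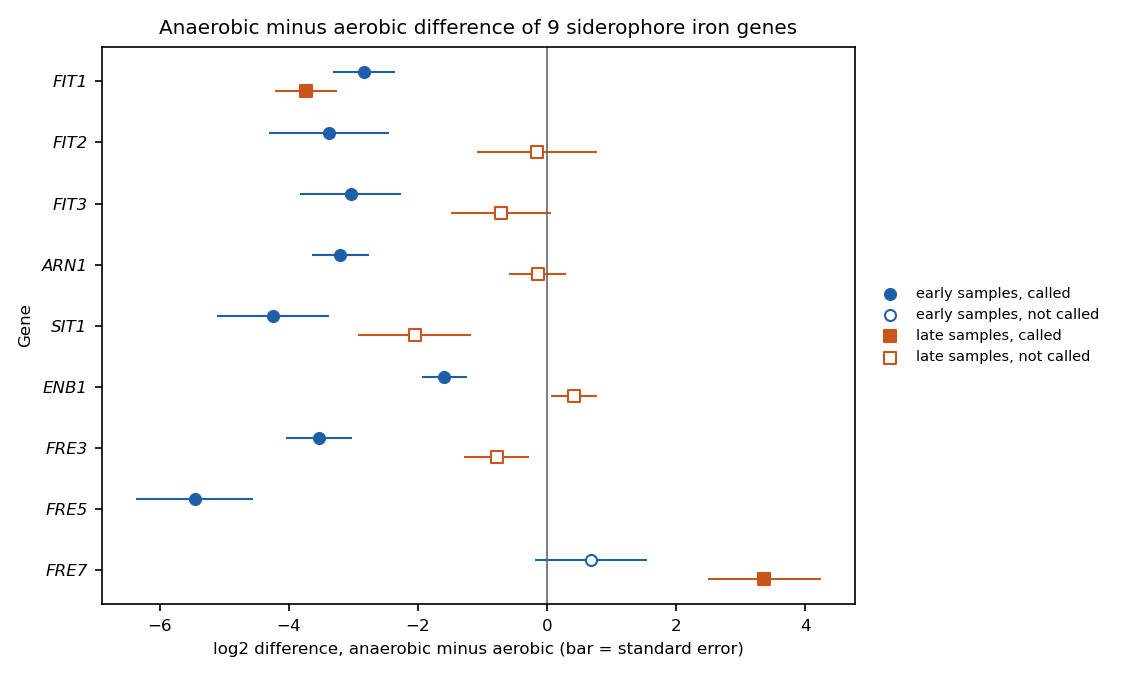
Anaerobic minus aerobic difference (log2 units) of the tested siderophore iron genes in the early (circles) and late (squares) samples, with bars of 1 SE from limma and filled symbols for an adjusted p under 0.05. In the early samples 7 filled genes lie between -1.59 and -4.24 and FRE5, whose filled symbol follows from the filter, is drawn at its fitted -5.46, while in the late samples the filled symbols are FIT1 at -3.73 and FRE7 at its fitted 3.37 (at least 2.77-fold from 4 log2 units), and FRE5 is not drawn for the late samples because all its arrays lay under 4 log2 units.

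The 6 combinations of oxygen and phase were ranked by their means. The aerobic early samples came first for FIT2, FIT3, ARN1, SIT1, ENB1 and FRE3, and not for FIT1 and FRE7. They also came first for FRE5, whose place follows from the filter. How many of all genes share this order was not counted. For FIT2 the aerobic early mean was 13.93 ± 0.53 log2 units (SD, n = 3), apart from the aerobic mid mean of 10.96 ± 2.51 (SD, n = 2). The next 3 combinations for FIT2 overlapped, and its lowest means were 8.62 ± 0.26 in the aerobic late and 8.48 ± 0.06 in the anaerobic late samples, which also overlapped. For ARN1 the aerobic early mean of 13.10 ± 0.29 stood apart from all others, which ran from 10.28 down to 9.31 with each neighbour overlapping the next. For FIT1 all 3 aerobic combinations, with means of 8.61 to 9.51, lay above the anaerobic ones, with means of 5.18 to 5.78. For FRE7 the order began with the anaerobic mid samples at 7.74 ± 0.36, the anaerobic early samples at 7.63 ± 0.52 and the aerobic early samples at 6.95 ± 1.57, which overlapped, and ended with the aerobic late samples at 2.10 ± 0.20.

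Of the 10 genes, 6 lie on chromosome XV, and 3 of them, FIT2, FIT3 and FRE5, are direct neighbours in the RefSeq annotation of assembly R64. FRE3 is separated from FIT2 by 1 annotated gene, YOR381W-A, which stayed between 1.96 and 2.05 on all arrays. Of these, FIT2, FIT3 and FRE3 fell with oxygen. Next to FRE5, YOR385W was at 11.54 to 11.85 log2 units in the early and 11.66 to 11.79 in the late aerobic samples, a change of -0.00 ± 0.17 (adjusted p = 0.991, limma). The gene after it, PHR1, which encodes the DNA photolyase, changed by 1.00 ± 0.60 (adjusted p = 0.275, limma). RDR1, on the far side of FRE3 and looked up after its values were seen, rose by 0.95 ± 0.25 (adjusted p = 0.0285, limma). Of the others, FIT1 lies on chromosome IV, SIT1 on V, and ARN1 and ARN2 on VIII, apart from each other.

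Among other genes of iron supply FET3, FTR1 and FRE6 fell with oxygen and FET4 rose. In the aerobic series 3 of 14 genes of reductive uptake fell, 1 rose and 10 did not pass, with a median change of -0.16 log2 units, beside 4.28% lower and 11.2% higher over all genes. FET3, the ferroxidase of high-affinity uptake, fell by 3.42 ± 0.79 (adjusted p = 0.0145), and FTR1, its permease partner, fell by 1.26 ± 0.31 (adjusted p = 0.0206). FRE6, a vacuolar reductase of the FRE family, fell as well, with a change of -1.0 ± 0.23 (adjusted p = 0.0157). FET4, a low-affinity iron transporter of the plasma membrane, went from 2.69, 5.15 and 2.52 in the early to 10.18, 10.71 and 11.02 in the late aerobic samples (7.19 ± 0.91, adjusted p = 0.000632). The early and late FET4 samples were far apart, in the direction opposite to FIT2 and ARN1. Of its 3 early aerobic arrays 2 lay under 4 log2 units, so the size of its change rests in part on values near background.

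Among 10 tested intracellular genes of the Aft1 and Aft2 regulon, 2 fell in the aerobic series and 8 did not pass, beside the same 4.28% lower over all genes (LSO1 was too low to test). VHT1 changed by -2.05 ± 0.34 log2 units (adjusted p = 0.00278) and CTH1, an RNA-binding protein gene, by -0.66 ± 0.17 (adjusted p = 0.0249). VHT1 encodes a biotin transporter of the plasma membrane, so it stands in this list without being an intracellular iron gene. TIS11, whose protein promotes decay of iron-related transcripts, changed by -4.04 ± 1.28, which did not pass the test (adjusted p = 0.0517). In the anaerobic series FET3 was the only gene of reductive uptake that passed the test, and fell by 4.70 ± 0.79 (adjusted p = 0.00609). Of the list of intracellular genes, in which VHT1 was counted, ISU1, VHT1 and FET5 fell there and SMF3 rose, by 0.73. Over all genes 2.34% fell and 3.7% rose in the anaerobic series. No gene of either list passed the test of the difference between the 2 changes, where 3 of 14 and 4 of 10 had an unadjusted p under 0.05 (limma).

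**Figure D5:**
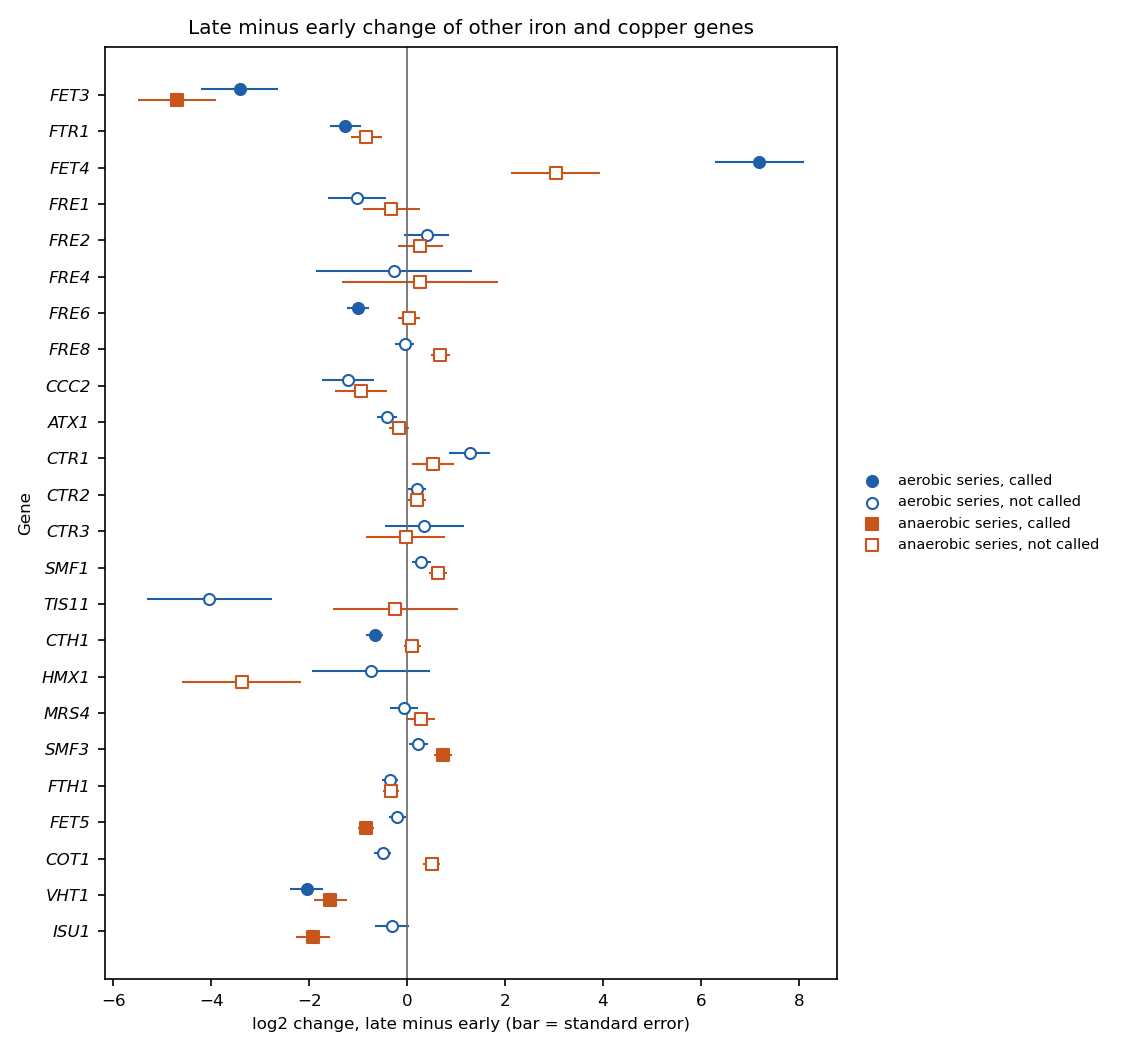
Late minus early change (log2 units) of 14 genes of reductive iron and copper uptake and 10 intracellular genes of the Aft1 and Aft2 regulon in the aerobic (circles) and anaerobic (squares) series, with bars of 1 SE from limma and filled symbols for an adjusted p under 0.05. FET3 is filled in both series, at -3.42 and -4.70, and FET4 stands at 7.19 with oxygen. Of the 3 early aerobic FET4 arrays 2 lay under 4 log2 units.

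Of 8 regulator genes of iron and copper supply, 2 rose along the feed with oxygen and 6 did not pass the test, beside 11.2% of all genes higher. MAC1 (1.08 ± 0.17 log2 units, adjusted p = 0.00222) and YAP5 (1.21 ± 0.27, adjusted p = 0.014) were the genes that rose. AFT1 changed by -0.77 ± 0.24 (adjusted p = 0.0512) and AFT2 by 0.47 (adjusted p = 0.058), neither past the threshold. In the anaerobic series none of the 8 passed the test, and 1 had an unadjusted p under 0.05 (limma). In the early samples 5 of the 8 were lower without oxygen, beside 36% of all genes, a share that depended on the scaling. The median difference was -0.73 log2 units over the 8 and -0.45 over all genes. AFT1 was among the 5, at -1.41 ± 0.24 (adjusted p = 0.00166, limma). Of the other 4 genes of the copper regulon under Mac1, to which FRE7 belongs, IRC7 rose with oxygen by 4.00 ± 0.61 (adjusted p = 0.00222), while CTR1, CTR3 and FRE1 did not pass.

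In the early samples, 11 of the 14 genes of reductive uptake and 9 of the 10 intracellular genes were lower without oxygen, beside 36% of all genes. The median differences of these lists were -1.34 and -1.19 log2 units, against -0.45 for all genes. The largest such differences among them were -6.16 ± 1.28 log2 units for TIS11 (adjusted p = 0.00407), -4.59 ± 1.21 for HMX1 (adjusted p = 0.012), -4.41 ± 0.81 for the copper transporter gene CTR3 (adjusted p = 0.00218) and -3.37 ± 0.79 for FET3 (adjusted p = 0.00696). FET4 was higher, by 5.72 ± 0.91 (adjusted p = 0.0011). TIS11 lay under 4 log2 units on 2 of its 3 early anaerobic arrays, and FET4 on 2 of its 3 early aerobic arrays. The sizes of these 2 differences therefore rest in part on values near background.

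The genes whose profiles lay closest to the mean profile of the 9 siderophore genes were found by Pearson correlation, each gene centred and scaled over the arrays. Over all 16 arrays these were FRE6 (0.920), ATP10 (0.918), TIS11 (0.906), VMR1 (0.903) and FTR1 (0.884). Over the 8 aerobic arrays they were MAL32 (0.972, from a probe set shared with related sequences), VMR1 (0.971), AIM20 (0.968), PPA2 (0.965) and FET3 (0.965). FRE6, TIS11 and FTR1 in the first set and FET3 in the second belong to the iron lists above. These likenesses describe serial samples of 2 series, in which neighbouring arrays share most of their conditions. FRE5, whose course follows from the filter, was part of the mean profile.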

How the data were processed

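The authors deposited 1 log2 intensity per probe set, made with GCRMA per the submitters' processing notes. No version or option of GCRMA is recorded in the labels or files, nor is it recorded if both series were normalized as 1 set. The scale was taken as log2 because the values run from 1.96 to 16.75. A gene symbol was annotated for 5498 of 5716 probe sets, and the remaining 218 were not used. Where a symbol had more than 1 probe set (47 genes, none of them a siderophore iron gene), the brightest on average stood for it. The filter on low values kept 5213 of 5449 genes. Between 5.42% and 6.74% of the probe sets of an array lay under 4.

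A linear model with 6 group means (oxygen by phase) was fitted in limma 3.58.1 (R 4.3.3) to all arrays, with 10 residual degrees of freedom and a variance prior that follows intensity (eBayes). Genes were called at a Benjamini-Hochberg adjusted p under 0.05 over all tested genes. Shares of all genes at an unadjusted p under 0.05 were not counted, so the unadjusted counts of lists and siderophore genes have no background beside them. Where all arrays of a side lay under 4, a bound measured from 4 is given. Errors marked ± are standard errors of the fit unless named SD. The model was tested on simulated data. Figures used matplotlib 3.10.9 in Python 3.11.15.

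The siderophore genes, the lists and the alternatives were chosen with earlier results of these data known. Beside all 10 siderophore genes, named genes were up to 4 called genes of largest change in each direction per list and comparison, neighbours of adjacent siderophore genes, the 5 closest profiles and condition markers. List members that did not pass were named after their values were seen. Lists covered reductive uptake, intracellular Aft genes, regulators, iron-sulfur assembly, the Mac1 regulon and Yap5 targets. Gene order came from RefSeq R64, and promoter and protein sequences were not used here. Alternatives covered filters, scaling, probe set means, variance models, phase limits, a slope on feed glucose, fits of each series alone, and left-out arrays.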

Additional observations from a re-analysis of the deposited data

Results flagged for a closer look

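ARN1 changed differently along the feed in the 2 series, by a test of the difference itself. Its late minus early change was -3.41 ± 0.44 log2 units with oxygen and -0.35 ± 0.44 without, and these differed by 3.06 ± 0.62 (adjusted p = 0.033, limma). The difference kept its sign in all 29 alternatives and lost its call in 12 of them.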

How the results depend on the processing

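Directions were kept under all alternatives for every tested siderophore gene in the aerobic late minus early comparison. The number of siderophore genes called there (7, with FRE5 counted here and below) was 0 with early and late of 2 samples and 3 for a slope on log2 feed glucose, and 6 to 8 when single arrays were left out. All genes called (807) numbered 476 with each series alone, 8 with phases of 2 samples, 122 with phases of 4, 142 for the slope, 2010 without the 0 h arrays and 2841 also without the aerobic 9.6 h array, and 278 to 1643 without single arrays. In the anaerobic series 0 siderophore genes were called without any single array, and 2 without the 3 arrays. All anaerobic calls (315) numbered 120, 127 and 95 with each series alone and with phases of 2 and 4 samples, 1038 without the 0 h arrays, 533 without the aerobic 9.6 h array, 2120 without the 3, and 74 to 612 without single arrays. For the difference of changes, 1 siderophore gene became 2 with no filter, second quantile normalization, centring or no trend, 0 with phases of 2 or 4 samples or the slope, 4 without the 0 h arrays, 3 without the 9.6 h array and 7 without the 3, and 0 to 4 without single arrays. All genes (95) numbered 13 and 10 with phases of 2 and 4, 205 and 509 without the 0 h arrays and without the 3, and 27 to 233 without single arrays. For oxygen averaged over the phases, 7 to 8 siderophore genes and 3389 to 4081 of all genes (3663) were called without single arrays. Early oxygen calls (2016, siderophore genes 8) numbered 453 after quantile normalization, 723 after centring and 465 with phases of 2 samples (siderophore genes 2), and 1403 to 2313 (7 to 8) without single arrays. Late oxygen calls (2809, siderophore genes 2) numbered 1341, 1515 and 1540 (siderophore genes 1 with phases of 2, and 4 without the 3 arrays), and 2349 to 3125 (2 to 3) without single arrays. Signs turned in the anaerobic change for FIT1 (0.37), ARN1 (0.31) and SIT1 (1.14) without the anaerobic 0 h array, alone or with others, for FIT1 (0.04 and 0.03) without the 35.67 or 42.85 h array and for SIT1 (0.68) without the 35.67 h array. Without single arrays these 3 ranged from -0.66 to 0.37, -0.86 to 0.31 and -0.91 to 1.14. They turned in the oxygen differences for ENB1 averaged (0.22 quantile, 0.16 centring), for FRE7 early (-0.23 without the aerobic 0 h array, up to 1.18 without others), and in the late samples for FIT2 (0.90 quantile, 0.47 centring, 0.01 with 2 samples, -0.24 to 0.00 without single arrays, the latter for the aerobic 27.25 h array), ARN1 (0.67, 0.48 and 0.02) and FRE3 (0.26 quantile). The cause was not tested. No paired analysis was possible because the labels give no replicate numbers and the samples are serial. Probes under 4 log2 units, as for ARN2 and FRE5, are limited by signal over background.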

Other observations

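Genes of iron-sulfur cluster assembly, a main consumer of mitochondrial iron, were also measured along the feed. With oxygen 3 of 16 tested genes fell and 1 rose, beside 4.28% lower and 11.2% higher over all genes. The genes that fell were IBA57 (-1.19 ± 0.21 log2 units, adjusted p = 0.00385), ISD11 (-0.76 ± 0.22, adjusted p = 0.0412) and the frataxin gene YFH1 (-0.67 ± 0.20, adjusted p = 0.0431), while the desulfurase gene NFS1 rose by 0.43 ± 0.12 (adjusted p = 0.0367, limma). Without oxygen ISU1, the scaffold gene, fell by 1.92 ± 0.34 (adjusted p = 0.00818) and the other 15 did not pass, beside 2.34% of all genes lower. None of the 3 genes under Yap5, CCC1, GRX4 and TYW1, passed the test in either series, where 0 of 3 with oxygen and 2 of 3 without had an unadjusted p under 0.05 (limma).

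The marker genes of the conditions moved as follows between the early and late samples. All 4 nitrogen markers and all 3 glucose-induced markers rose with oxygen. Without oxygen 1 of the 4 nitrogen markers and 0 of the 3 glucose-induced markers passed, with 4 and 0 at an unadjusted p under 0.05 (limma). The anaerobic sample at 35.67 h, counted as late, preceded the largest rise of each of the 4 nitrogen markers. All 3 respiratory markers fell without oxygen, and all 5 markers of growth without oxygen rose there. No marker of these last 2 lists passed in the aerobic series, with 0 at an unadjusted p under 0.05 (limma).

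In the anaerobic series, where FRE5 has no signal, the 21 pairwise correlations among the siderophore genes other than FIT1 ran from -0.44 to 0.91 over the 8 arrays, with a median of 0.50. The 7 pairs with FIT1 ran from -0.43 to 0.92, with a median of 0.55. Beside the aerobic pairs, among which those of FRE5 were counted, the anaerobic pairs without FIT1 were spread more widely, a comparison that was not tested.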
